A study of Homo sapiens with 8 samples.

Results

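The genes of the proteasome were followed in 8 mRNA libraries from 2 human colorectal cancer cell lines, HT29 and SW480, both of which carry truncated APC. Each line had been transfected for 36 h with control siRNA or with PRDX2 siRNA, in duplicate, which gave 4 groups of 2 libraries. PRDX2 encodes the cytosolic peroxidase peroxiredoxin 2. HT29 cells had been grown in McCoy's 5A medium and SW480 cells in the medium labelled RPMI1840, both with serum. The labels did not say whether duplicates came from separate cultures, so the p-values measure the spread between these libraries, which may be technical. Rows were taken whose symbol began with PSMA, PSMB, PSMC, PSMD, PSME, PSMF or PSMG followed by a digit, and which held at least 10 expected counts in at least 2 of the 8 libraries. This rule took 49 of 51 matching symbols, out of 14769 genes that passed the same filter among 25192 in the tables. Of the 49 rows, 46 encode subunits, regulators or assembly chaperones of the proteasome, 5 of them immunoproteasome genes (PSMB8, PSMB9, PSMB10, PSME1 and PSME2). The other 3 rows were PSMC3IP, a recombination factor named for binding PSMC3, and the antisense RNAs PSMD6-AS2 and PSMG3-AS1. PSMD6-AS2 lay just inside the filter, with 2 to 11 expected counts per library. The symbols left out were PSMA8 and PSMB11, subunits known from testis and thymus, which were listed at 0 in every library. A floor of 3 counts corresponded to 0.295 to 0.339 CPM, counts scaled to library size, across libraries.

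The proteasome degrades proteins tagged with ubiquitin. Its 20S core is a barrel of outer alpha rings, which gate the entrance, and inner beta rings, in which PSMB5, PSMB6 and PSMB7 cut the substrate. A 19S cap sits on the core: its base holds ATPases that unfold the substrate, and its lid removes the ubiquitin. Under interferon, cells make PSMB8, PSMB9 and PSMB10, which take the places of PSMB5, PSMB6 and PSMB7, and the PSME1 and PSME2 activator, which together favour peptides for display on MHC class I. Colorectal cancer lines are known to hold both forms.

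The immunoproteasome genes were read beside their promoters, because this set is known to be induced by interferon, which acts through the interferon-stimulated response element. In RefSeq promoter windows of GRCh38.p14, which run from 250 bases before to 50 after each start site, the element's core, GAAA followed after any 2 bases by a second GAAA (either strand), was found in 4 of the 5 immunoproteasome genes. It was found in 2 of 10 constitutive 20S core genes with a window, in 0 of 16 genes of the 19S base and lid, and in 4.38% of 27305 genes with a window. The stretch from 80 bases before to 20 after the start is shown for the 5 genes, 5′ to 3′, with the core motif in capitals. In PSMB8 a further stretch in capitals is a gamma-activated sequence, TTCNNNGAA. That sequence was found in 1 of 5 immunoproteasome genes and 9.38% of all genes. It was also found in 2 of 10 constitutive core genes and 3 of 16 genes of the 19S base and lid. PSMB8 has 2 annotated start sites, and the one without the element is not shown.
PSMB8: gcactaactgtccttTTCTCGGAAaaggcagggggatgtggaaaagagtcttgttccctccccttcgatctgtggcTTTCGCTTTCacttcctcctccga
PSMB9: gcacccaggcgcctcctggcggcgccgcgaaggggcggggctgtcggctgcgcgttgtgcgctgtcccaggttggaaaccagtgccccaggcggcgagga
PSMB10: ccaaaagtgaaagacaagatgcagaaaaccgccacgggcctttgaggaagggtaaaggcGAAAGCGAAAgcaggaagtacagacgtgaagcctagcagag
PSME1: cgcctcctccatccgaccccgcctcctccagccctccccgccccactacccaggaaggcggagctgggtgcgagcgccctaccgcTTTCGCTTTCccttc
PSME2: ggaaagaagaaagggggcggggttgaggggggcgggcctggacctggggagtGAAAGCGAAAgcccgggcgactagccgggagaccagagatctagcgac
The windows lie at chr6:32844028-32844127 on the minus strand, chr6:32854112-32854211 on the plus strand, chr16:67936831-67936930 on the minus strand, chr14:24136114-24136213 on the plus strand and chr14:24146591-24146690 on the minus strand. The motif began 4, 21 and 28 bases upstream of the start in PSMB8, PSMB10 and PSME2, and at base 6 downstream of it in PSME1. These letters were not in the PSMB9 window. The core of the antioxidant response element, TGANNNNGC, was found in 4 of 5 immunoproteasome genes, 8 of 10 constitutive core genes and 9 of 16 genes of the 19S base and lid, against 47.1% of all genes. CCAAT was found in 1 of 5, 7 of 10 and 8 of 16, against 39.7% of all genes. No motif was tied to a measurement of binding here. On the build of the deposited files, hg19 (GRCh37), the genes themselves are PSMB8 (chr6:32808494-32812456, minus strand), PSMB9 (chr6:32811913-32827628, plus strand), PSMB10 (chr16:67968409-67970767, minus strand), PSME1 (chr14:24605372-24608176, plus strand) and PSME2 (chr14:24612571-24616779, minus strand).

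Total expected counts were 8857442 to 10164137 per library, and the 49 rows took 0.546 to 0.702% of them. PRDX2 itself stood at 153 and 159 CPM in the HT29 controls and 85.3 and 86.0 CPM after PRDX2 siRNA. In SW480 it stood at 202 and 238 CPM with control siRNA and 67.2 and 68.3 CPM with PRDX2 siRNA. It fell in both lines, by 0.87 on the log2 scale in HT29 (edgeR adjusted p = 1.15e-09) and by 1.70 in SW480 (edgeR adjusted p = 6.18e-04), the direction the labels give. All 7 epithelial markers examined were detected in every group, with summed levels of 9874 to 17042 TPM, the scale that divides by transcript length and then by library size. CDH1, the epithelial cadherin, was low in SW480 controls (12.2 ± 0.361 TPM, SD, n = 2). The 5 leukocyte markers summed to 3.84 to 11.1 TPM and the 4 stromal markers to 1.2 to 9.33 TPM, with PTPRC, which defines leukocytes, at 0 in all groups. The SW480 control duplicates stood apart. Their counts differed with a chi-square per degree of freedom of 11.2, against 1.43 to 2.13 in the other groups. Because the library kit did not mark strand, reads of genes that overlap on opposite strands cannot be told apart. In the bulk libraries, fewer cells with a transcript and less of it per cell cannot be told apart either.

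The HT29 control libraries gave the order of levels, on the TPM scale. The 14 constitutive core genes had a median of 253 TPM, from 92.5 TPM for PSMB2 to 705 TPM for PSMA7, a structural beta and an alpha ring subunit of the same barrel. The 17 genes of the 19S base and lid had a median of 139.7 TPM, from 19.9 TPM for the ATPase PSMC1 to 329 TPM for the lid subunit PSMD8. PSMC1 has 13 named pseudogenes in the GENCODE annotation and PSME2 has 6, so reads of these genes could have been split and their levels are uncertain. Of the catalytic subunits, PSMB7 stood at 346 ± 14.8 TPM (SD, n = 2), above PSMB6 at 154 ± 1.87 TPM and PSMB5 at 147 ± 2.91 TPM. Among the immunoproteasome genes the activator PSME1 led with 352 ± 11.5 TPM, followed by PSME2 with 122 ± 1.96 TPM and PSMB10 with 98.1 ± 5.95 TPM. PSMB8 followed with 45.4 ± 0.389 TPM and PSMB9 came last with 7.99 ± 0.219 TPM, each neighbour in this order being separated by more than its SD. The chaperones that assemble the base (PSMD5, PSMD9 and PSMD10) lay between 30.4 and 57.9 TPM, and those that assemble the core (PSMG1 to PSMG4) between 46.01 and 125 TPM.

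In HT29, genes of the 20S core and of the immunoproteasome were lower after PRDX2 siRNA. Of 48 rows tested, 14 passed an edgeR adjusted p of 0.05, 13 lower and 1 higher, which is 29.2% against 17.6% of all genes tested. Lower calls made up 9.82% of all genes tested and higher calls 7.76%. By role, 9 of 14 constitutive core genes fell and none rose, with a median log2 change of -0.14 against 0.00 for all genes. Of the 17 genes of the 19S base and lid, 1 fell, and the median change was -0.02. The summed CPM of the 14 core genes was 2257 and 2276 in the controls and 2036 and 2050 after PRDX2 siRNA. For the 17 cap genes the sums were 2446 and 2444, then 2399 and 2400. The difference between the core and the cap was not itself tested. The symbol rule also left out the lid component SHFM1, which fell (log2 change -0.30). ADRM1, of the 19S base, lay outside the rule too and did not pass (log2 change 0.13, edgeR adjusted p = 0.0981). On the TPM scale limma called 10 rows, 3 higher and 7 lower, against 13.9% of all genes. Of all 12961 genes tested on that scale, 1252 were called higher and 548 lower. There 4 core genes fell and 12 of 14 lay below 0, against 14 of 14 on the CPM scale. The core median on the TPM scale was -0.08, where that of all genes was 0.06. Leaving out PRDX2 siRNA replicate 1 or replicate 2 lowered the calls from 14 to 9 rows each (12.3 and 13.2% of all genes then passed), and the core genes called lower from 9 to 5 without replicate 1.

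In the alpha ring, PSMA1, PSMA2, PSMA3, PSMA4, PSMA5 and PSMA7 passed the test, with log2 changes from -0.14 to -0.26. PSMA6 had a change of -0.11 and an edgeR adjusted p of 0.166. PSMA3, of the alpha ring, measured 85.7 and 81.2 CPM in the controls and 72.4 and 66.8 CPM after PRDX2 siRNA. Both treated libraries lay below both controls, and the log2 change was -0.26 ± 0.06 SE, edgeR adjusted p = 0.00420. PSMA1 measured 171 and 172 CPM in the controls and 148 and 152 CPM after PRDX2 siRNA, a gap wider than the spread of either pair. In all 7 alpha genes the treated libraries lay below the controls, as did 28.3% of all genes tested. Of the 7 alpha genes, 2 passed with DESeq2, 3 with limma on TPM, 3 without PRDX2 siRNA replicate 1, 4 without PRDX2 siRNA replicate 2 and 0 in a fit of all 8 libraries together.

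Among the beta subunits, the non-catalytic PSMB1, PSMB2 and PSMB4 fell and PSMB3 did not pass the test (-0.03 on the log2 scale). PSMB1 measured 149 and 148 CPM in the controls and 127 and 123 CPM after PRDX2 siRNA. The groups did not overlap, and the log2 change was -0.25 ± 0.05 SE, edgeR adjusted p = 9.06e-04. None of the 3 constitutive catalytic genes passed the test. PSMB5, the chymotrypsin-like subunit and main target of bortezomib, measured 84.7 and 88.5 CPM with control siRNA and 85.2 and 85.0 CPM with PRDX2 siRNA, with overlapping groups and a log2 change of -0.03 ± 0.05 (SE). PSMB6, the caspase-like subunit, measured 59.9 and 58.9 CPM with control siRNA and 55.3 and 52.8 CPM with PRDX2 siRNA (log2 change -0.14 ± 0.06 SE, edgeR adjusted p = 0.138). PSMB7, the trypsin-like subunit, measured 156 and 166.2 CPM with control siRNA and 147 and 149 CPM with PRDX2 siRNA (log2 change -0.13 ± 0.05 SE, edgeR adjusted p = 0.0680). In PSMB6 and PSMB7 the treated libraries lay below the controls, as in 28.3% of all genes tested. The changes of PSMB6 and PSMB7 were close in size to those of several alpha genes that passed.

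**Figure D1:**
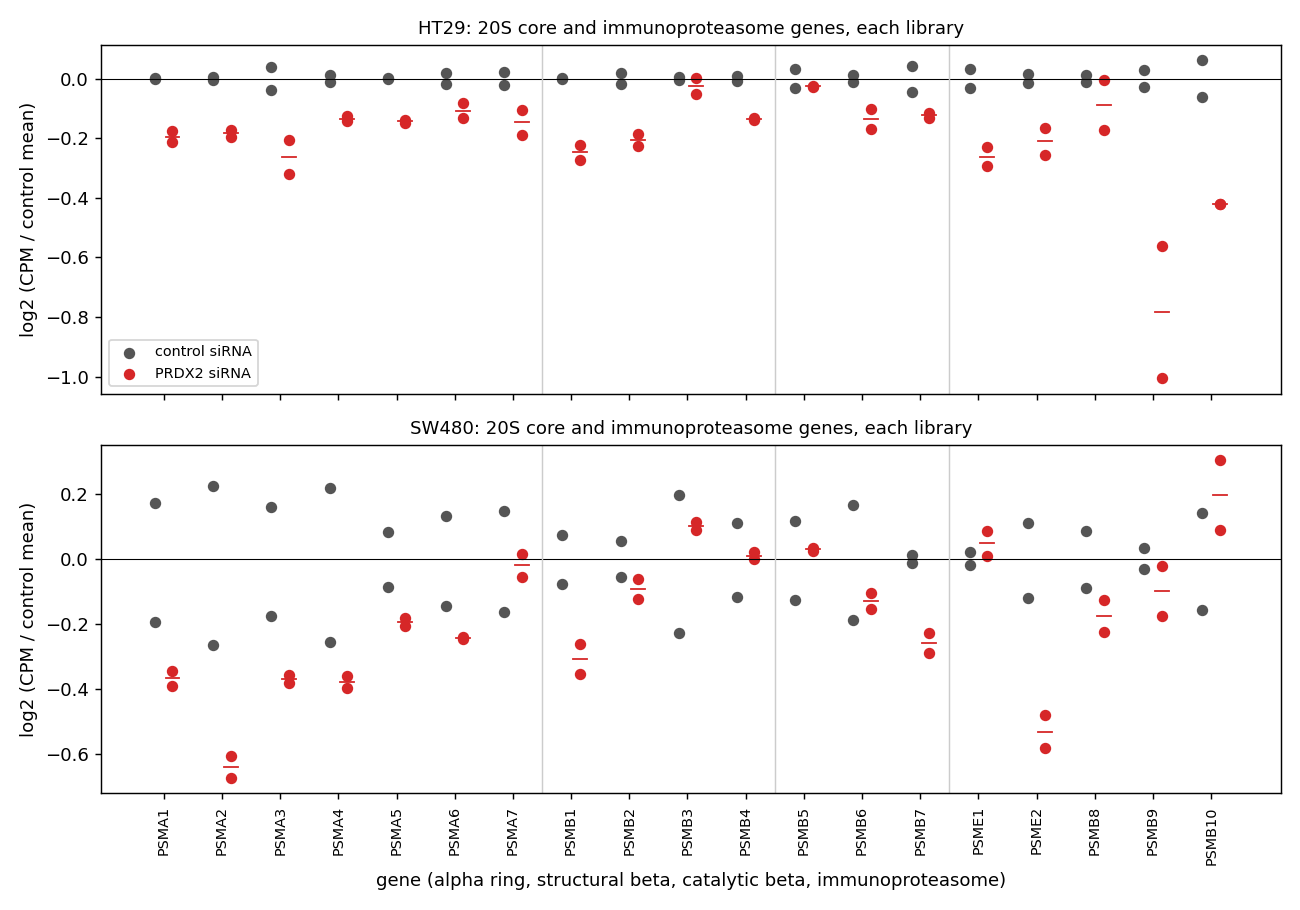
Each point is a library: the vertical axis gives log2 of the gene's CPM over the mean of the control libraries of its line, for the 14 constitutive 20S core genes and the 5 immunoproteasome genes, with HT29 above and SW480 below. Grey points are control siRNA, red points PRDX2 siRNA and red bars their mean; in HT29 the red points of all 7 alpha genes lie below the grey ones, while in SW480 the grey points of single genes are spread widely.

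The immunoproteasome genes of HT29 fell in 3 of 5 cases, with a median log2 change of -0.26 over the 5, against 9.82% of all genes that fell. With DESeq2, with no filter and without any 1 of the 4 HT29 libraries, 2 of the 5 passed, and in the fit of all 8 libraries none did. PSMB10, the inducible trypsin-like subunit, measured 47.2 and 43.3 CPM in the controls and 33.8 and 33.8 CPM after PRDX2 siRNA. The groups were well apart, and the fall was 1.34-fold (log2 change -0.42 ± 0.07 SE, edgeR adjusted p = 6.31e-04). PSME1, the alpha subunit of the activator, measured 165 and 158 CPM with control siRNA and 132 and 137 CPM with PRDX2 siRNA (log2 change -0.26 ± 0.05 SE, edgeR adjusted p = 6.21e-04). PSME2, its beta subunit, measured 45.3 and 46.3 CPM with control siRNA and 40.8 and 38.4 CPM with PRDX2 siRNA (log2 change -0.21 ± 0.07 SE, edgeR adjusted p = 0.0445). Both treated libraries lay below both controls in each of these 3 genes, as in 28.3% of all genes tested. PSMB9, the inducible caspase-like subunit, measured only 3.92 and 3.77 CPM in the controls and 1.92 and 2.61 CPM after PRDX2 siRNA. This change, the largest in size among the 48 rows tested, rested on 19 to 37 expected counts per library and did not pass the test (log2 change -0.77 ± 0.27 SE, edgeR adjusted p = 0.0597). PSMB9 did pass with a block for the replicate number and with a correction for GC content. PSMB8, the inducible chymotrypsin-like subunit, measured 24.2 and 23.8 CPM with control siRNA and 21.3 and 23.9 CPM with PRDX2 siRNA, with overlapping groups (log2 change -0.09 ± 0.10 SE). PSMB8 and PSMB9 overlap on opposite strands and PSMB9 also overlaps TAP1, so part of their reads cannot be assigned.

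The rest of the complex in HT29 is given by role. Among the 17 cap genes that the rule took, only PSMD1, a scaffold of the 19S base, fell (log2 change -0.14 ± 0.04 SE, edgeR adjusted p = 0.0315). SHFM1, a lid component whose symbol lies outside the rule, also fell and is given below. ADRM1, a component of the 19S base outside the rule, had a log2 change of 0.13 ± 0.05 SE and did not pass. None of the 6 ATPase genes, 8 lid genes, 3 base chaperones, 4 core chaperones and 3 other regulators (PSME3, PSME4 and PSMF1) passed the test, and their log2 changes ran from -0.12 to 0.14. PSMC3IP was the single row that rose, from 39.1 and 43.6 CPM to 52.8 and 52.7 CPM (log2 change 0.35 ± 0.07 SE, edgeR adjusted p = 0.00194), and it encodes no part of the proteasome. The number of HT29 calls changed with the model: DESeq2 called 6 rows, against 6.72% of all genes, and a fit of all 8 libraries together called 0, against 1.25%, with 8 at an unadjusted p under 0.05. That joint fit shares its spread with SW480, whose biological coefficient of variation was 0.0993 against 0.0249 in HT29.

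**Figure D2:**
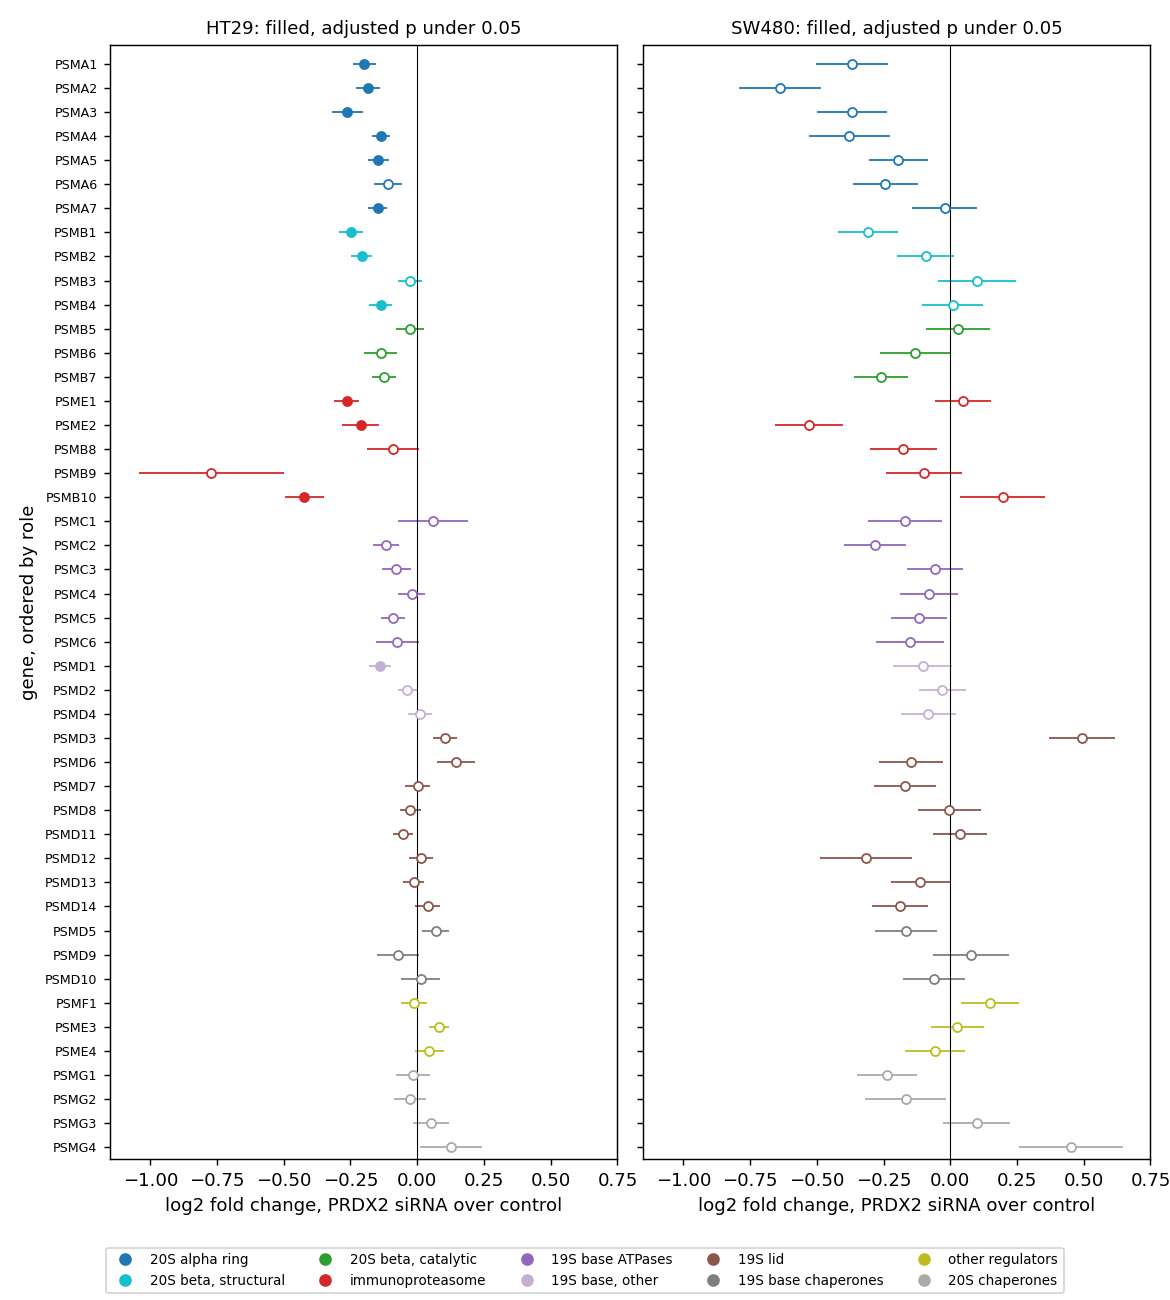
The horizontal axis gives the log2 fold change of PRDX2 siRNA over control siRNA for the 46 genes of the complex in HT29 (left) and SW480 (right), with bars of 1 SE, ordered and coloured by role. Filled points passed an adjusted p of 0.05: 13 in HT29, 9 of them constitutive core genes, and none in SW480, where the bars are longer.

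In SW480, no row passed the test. Of 48 tested, 0 had an edgeR adjusted p under 0.05, against 3.3% of all genes, 11 had an unadjusted p under 0.05, against 24.4%, and DESeq2 called 3, against 4.86%. The core genes had a median log2 change of -0.22, the alpha ring -0.37, the 19S base and lid -0.11 and the immunoproteasome genes -0.10, against 0.00 for all genes. The 3 rows nearest to the threshold were also the 3 that DESeq2 called. PSMA2, an alpha ring subunit, measured 283 and 201 CPM in the controls and 152 and 159 CPM after PRDX2 siRNA (log2 change -0.64 ± 0.15 SE, edgeR adjusted p = 0.0579). PSME2 measured 73.9 and 63.0 CPM with control siRNA and 45.7 and 49.1 CPM with PRDX2 siRNA (log2 change -0.53 ± 0.13 SE, edgeR adjusted p = 0.0580). PSMD3, a scaffold of the lid, measured 149 and 180.3 CPM with control siRNA and 223 and 241 CPM with PRDX2 siRNA (log2 change 0.49 ± 0.12 SE, edgeR adjusted p = 0.0633). The groups did not overlap in these 3 genes, as in 29% of all genes tested on the lower side and 29.7% on the higher, but the controls of PSMA2 were themselves far apart. PSMA2 and PSMD3 were chosen for this account after their values were seen.

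The other immunoproteasome and catalytic genes of SW480 did not pass the test. PSMB8 measured 48.1 and 54.3 CPM in the controls and 46.9 and 43.8 CPM after PRDX2 siRNA (log2 change -0.18 ± 0.13 SE), and these groups did not overlap. PSMB9 measured 24.6 and 25.7 CPM with control siRNA and 24.8 and 22.3 CPM with PRDX2 siRNA (log2 change -0.10 ± 0.14 SE). PSMB10 measured 21.9 and 26.9 CPM with control siRNA and 26.0 and 30.1 CPM with PRDX2 siRNA (log2 change 0.20 ± 0.16 SE). In PSMB9 and PSMB10 the groups overlapped, as they did in PSME1. PSME1 measured 103 and 100.3 CPM with control siRNA and 108 and 102 CPM with PRDX2 siRNA (log2 change 0.05 ± 0.11 SE). PSMB5 measured 86.6 and 102 CPM with control siRNA and 96.7 and 96.1 CPM with PRDX2 siRNA. PSMB6 measured 93.4 and 119 CPM and then 98.8 and 95.7 CPM, and the groups overlapped in both. PSMB7 measured 229.7 and 234 CPM with control siRNA and 198 and 189.5 CPM with PRDX2 siRNA without overlap (log2 change -0.26 ± 0.10 SE, edgeR adjusted p = 0.166).

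The SW480 control duplicates were far apart for many of these genes. Across the 46 genes of the complex the log2 ratio of control replicate 1 to 2 ran from -0.42 to 0.59, and its size had a median of 0.20, against 0.04 to 0.06 in the other groups. That ratio moved with base composition: its Spearman rho with transcript GC content was -0.74 across the 46 genes of 1 pair of libraries, which share their depth. Across all genes with a known GC content the rho was -0.73, so the tilt was not particular to the proteasome genes. The alpha ring genes, of low GC content (median 41.6%), were higher in control replicate 1 in 6 of 7 cases, with a median log2 ratio of 0.33. The immunoproteasome genes, with a median of 52.3% GC, were higher there in 2 of 5. Without control replicate 1, 14 rows passed the test, against 24.6% of all genes (7 of the 14 core genes lower), and without control replicate 2, 29 rows did, against 52.8% (8 core genes lower and 3 higher). The alpha ring median was -0.17 without replicate 1 and -0.53 without replicate 2. The core median was -0.16 and -0.27, and that of the 19S base and lid -0.07 and -0.20. The immunoproteasome median was -0.13 without control replicate 1 and -0.07 without control replicate 2. Without PRDX2 siRNA replicate 1 that median was -0.17, and without PRDX2 siRNA replicate 2 it was -0.02. With a correction for GC content the alpha ring median was -0.15, the core median -0.11 and the 19S median -0.07, and 6 rows passed, against 18.7% of all genes. With both that correction and a replicate block, 10 rows passed, against 23.4%. The part of the uneven duplicates in the SW480 changes beyond these values was not tested.

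**Figure D3:**
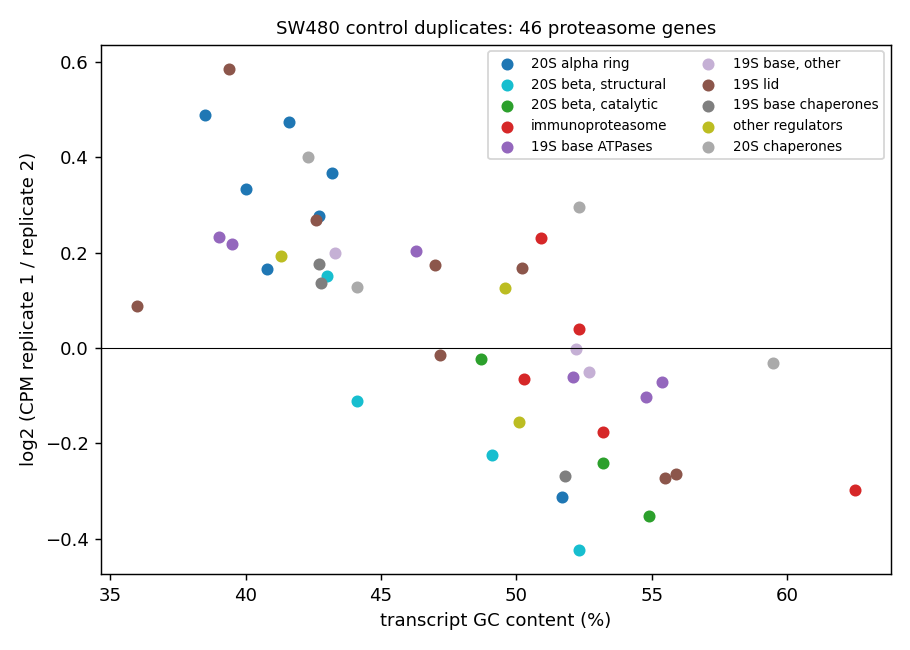
For each of the 46 genes of the complex, the vertical axis gives log2 of CPM in SW480 control replicate 1 over replicate 2 and the horizontal axis its transcript GC content in percent, coloured by role. Low GC content goes with values above 0 and high GC content with values below it, with a Spearman rho of -0.74 (-0.73 across all genes).

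The lines were compared by testing the HT29 change minus the SW480 change, which shares all its libraries with the comparisons above. Of 49 rows, 1 passed, against 1.12% of all genes, and 9 had an unadjusted p under 0.05, against 19.2%. The row that passed was PSMC3IP, which rose in HT29 and measured 53.0 and 51.6 CPM in the SW480 controls and 39.4 and 39.0 CPM after PRDX2 siRNA (difference 0.77 ± 0.13 SE, edgeR adjusted p = 0.0209). It lies opposite MLX on the genome, so its reads may be shared with that gene. No subunit passed. The subunits with the smallest p were PSMB10 (difference -0.62 ± 0.17 SE, edgeR adjusted p = 0.107), PSME1 (difference -0.31 ± 0.10 SE, edgeR adjusted p = 0.149) and PSMD3 (difference -0.39 ± 0.13 SE, edgeR adjusted p = 0.150). Of the 5 immunoproteasome genes, 4 had an unadjusted p under 0.05, with differences of -0.62 in PSMB10, -0.67 in PSMB9, -0.31 in PSME1 and 0.32 in PSME2, a group singled out after the values were seen. With the correction for GC content PSME1 and PSMD3 passed, against 7.16% of all genes, each with a difference of -0.30. PSMB10, with a transcript GC content of 62.5%, did not pass with that correction, under which its SW480 change reversed sign. PSMD6-AS2, the fifth by p, had at most 11 expected counts in a library and is not read here. Leaving out any HT29 library or either SW480 PRDX2 siRNA library left 0 rows called, leaving out SW480 control replicate 1 gave 4, against 9.32% of all genes, and leaving out SW480 control replicate 2 gave 23, against 35.7%. The fits that left 0 rows called very few genes of any kind, so that 0 is not particular to the proteasome rows. With any library left out, the PSMC3IP difference stayed between 0.69 and 0.85. With all 8 libraries, the differences of the 14 core genes ran from -0.14 to 0.45, with a median of 0.06.

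With control siRNA, the lines differed in 34 of 49 rows, 24 higher and 10 lower in SW480, which is 69.4% against 73.2% of all genes (39% higher and 34.2% lower). On the TPM scale limma called 35 rows, 30 higher and 5 lower, against 72.9%. Of all 14772 genes tested on that scale, 6423 were called higher and 4340 lower. Line, culture medium and any difference in the handling of each line's libraries cannot be told apart here. All 5 immunoproteasome genes differed, 3 up and 2 down. PSMB9 was 6.52-fold higher in SW480 controls, at 24.6 and 25.7 CPM against 3.92 and 3.77 CPM (log2 difference 2.71 ± 0.16 SE, edgeR adjusted p = 3.92e-08). PSMB8 stood at 48.1 and 54.3 CPM against 24.2 and 23.8 CPM (log2 difference 1.09 ± 0.11 SE, edgeR adjusted p = 2.60e-06), and PSME2 at 73.9 and 63.0 CPM against 45.3 and 46.3 CPM (log2 difference 0.58 ± 0.10 SE, edgeR adjusted p = 2.68e-04). PSMB10 went the other way, at 21.9 and 26.9 CPM in SW480 against 47.2 and 43.3 CPM in HT29 (log2 difference -0.89 ± 0.12 SE, edgeR adjusted p = 4.46e-05). PSME1 was also lower in SW480, at 103 and 100.3 CPM against 165 and 158 CPM (log2 difference -0.67 ± 0.07 SE, edgeR adjusted p = 6.31e-06). The inducible set was split between the lines, and the partners of the activator, PSME1 and PSME2, lay in opposite directions.

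Of the other genes, the lid scaffold PSMD6 was 3.27-fold higher in SW480, at 157 and 131 CPM against 45.6 and 42.4 CPM (log2 difference 1.71 ± 0.10 SE, edgeR adjusted p = 3.68e-08). The ATPase PSMC1 stood at 46.7 and 40.6 CPM against 16.4 and 13.0 CPM (log2 difference 1.56 ± 0.14 SE, edgeR adjusted p = 9.92e-07), with the limit of its pseudogenes. The antisense RNA PSMG3-AS1 stood at 12.7 and 16.6 CPM against 5.09 and 5.17 CPM (log2 difference 1.52 ± 0.19 SE, edgeR adjusted p = 1.75e-05), without strand to part it from PSMG3. Of the 6 ATPase genes, 5 were higher in SW480 and none lower. Of the catalytic genes, PSMB6 (log2 difference 0.84 ± 0.11 SE, edgeR adjusted p = 2.68e-05) and PSMB7 (log2 difference 0.52 ± 0.07 SE, edgeR adjusted p = 3.15e-05) were higher. PSMB5 was not called (log2 difference 0.13 ± 0.09 SE, edgeR adjusted p = 0.219). Of the 4 non-catalytic beta genes, PSMB1, PSMB2 and PSMB3 were lower. Of the 7 alpha ring genes, 4 were higher and 1 lower, and of the 8 lid genes, 3 were higher and 3 lower. Of the core chaperones 1 was higher and 1 lower, and of the base chaperones 1 was higher. Of the other regulators, PSME3 and PSMF1 were higher. Levels kept much of their order between the lines: the Spearman rho of mean TPM across the 46 genes was 0.87, a description of genes that share their libraries.

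**Figure D4:**
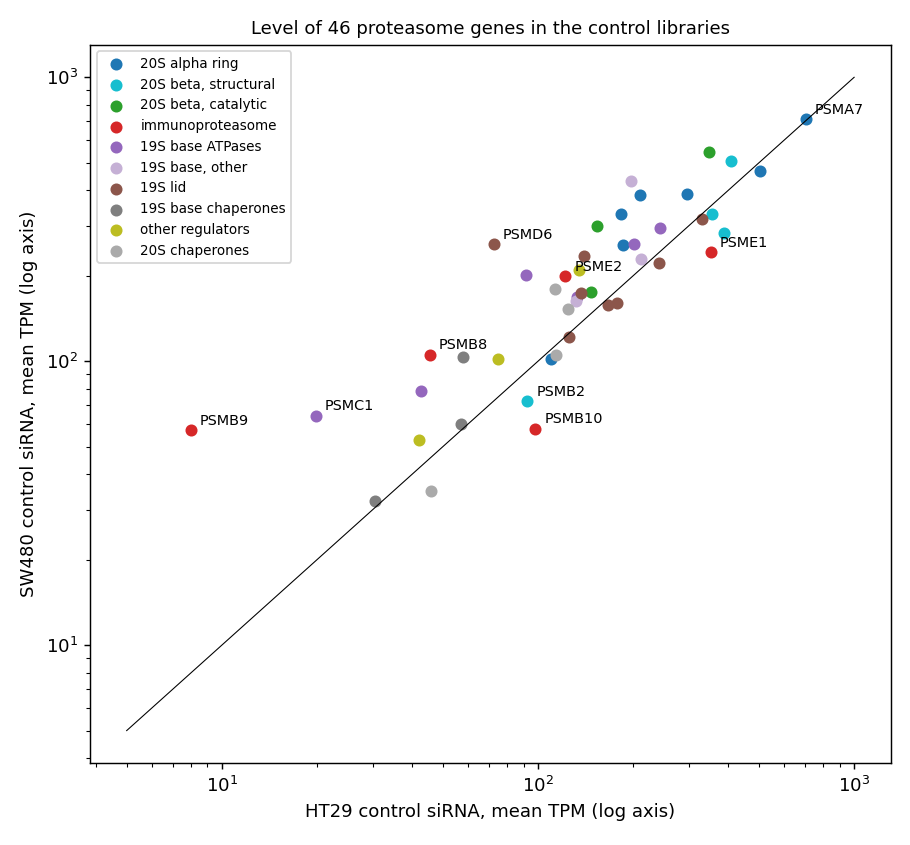
Mean TPM of the 46 genes of the complex in the SW480 controls (vertical, log axis) against the HT29 controls (horizontal, log axis), 2 libraries each, coloured by role, with the line of equal levels. PSMB9, PSMC1, PSMD6 and PSMB8 lie above the line and PSMB10 and PSME1 below it.

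The inducible subunits were then set against the constitutive subunits they replace, as a TPM ratio within each library. PSMB8 amounted to 31.5% and 30.2% of PSMB5 in the HT29 controls and 27.6% and 31.2% after PRDX2 siRNA. In SW480 it amounted to 60.5% and 59.7% and then 52.6% and 51.0%. The HT29 groups overlapped and the SW480 groups did not, with a difference of -0.21 in the log2 ratio against a pooled SD of 0.02. PSMB9 amounted to 5.25% and 5.14% of PSMB6 in the HT29 controls and 2.79% and 3.97% after PRDX2 siRNA. In SW480 it amounted to 21.1% and 17.3% and then 20.1% and 18.7%. Here the HT29 groups were apart (log2 difference -0.64, pooled SD 0.26) and the SW480 groups overlapped. PSMB10 amounted to 30.4% and 26.3% of PSMB7 in the HT29 controls and 23.2% and 22.9% after PRDX2 siRNA. In SW480 it amounted to 9.63% and 11.6% and then 13.3% and 16.0%. This ratio was lower in HT29 (log2 difference -0.30, pooled SD 0.11) and higher in SW480 (0.46, pooled SD 0.19) after PRDX2 siRNA, without overlap in either. PSMB10 has a transcript GC content of 62.5% and PSMB7 of 48.7%, and the SW480 side of this ratio rests on the control duplicates that moved with GC content. With the correction for GC content the SW480 log2 change of PSMB10 itself was -0.06 in place of 0.20. An exact two-sided permutation test of 2 against 2 libraries cannot go below p = 0.33, so none of these ratios could pass. The 3 inducible genes together made up 19.7% and 18.2% of the TPM of all 6 catalytic genes in the HT29 controls and 16.3% and 17.1% after PRDX2 siRNA. In SW480 they made up 17.6% and 17.9% and then 18.7% and 19.2%. The groups did not overlap in either line, lower after PRDX2 siRNA in HT29 and higher in SW480, and PSMB10 is among the genes summed.

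**Figure D5:**
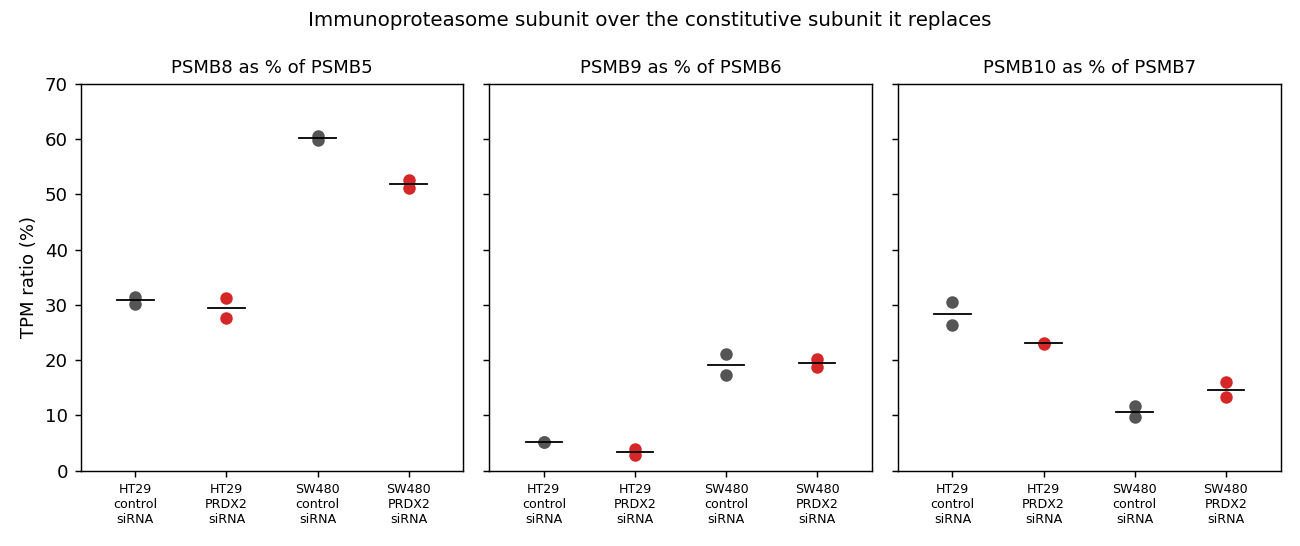
Each panel gives the TPM of an inducible catalytic subunit as a percent of the constitutive subunit it replaces, with 1 point per library, bars at the mean, grey for control siRNA and red for PRDX2 siRNA. PSMB8 and PSMB9 ratios are higher in SW480 and PSMB10 ratios higher in HT29 in every library.

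Genes that work with the proteasome were counted beside it. Of 28 partners (maturation and shuttle factors, ubiquitin supply and regulators of subunit genes), 8 passed in HT29, 4 higher and 4 lower, or 28.6%, against 17.6% of all genes. SHFM1, an acidic lid component, measured 109.7 and 112 CPM in the controls and 85.1 and 96.0 CPM after PRDX2 siRNA (log2 change -0.30 ± 0.06 SE, edgeR adjusted p = 0.00124). POMP, the maturation factor of the 20S core, measured 284 and 284 CPM with control siRNA and 232 and 234 CPM with PRDX2 siRNA (log2 change -0.29 ± 0.03 SE, edgeR adjusted p = 1.50e-05). VCP, the segregase that feeds ubiquitin-tagged proteins to the proteasome, also fell (log2 change -0.18 ± 0.03 SE, edgeR adjusted p = 3.01e-04). NFE2L2, which encodes NRF2, rose from 220.2 and 212 CPM to 262 and 267 CPM (log2 change 0.29 ± 0.04 SE, edgeR adjusted p = 3.09e-05), and the shuttle factor UBQLN4 rose (log2 change 0.17 ± 0.05 SE, edgeR adjusted p = 0.0180). None of the 28 passed in SW480, where 3.3% of all genes did.

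Of 12 genes of class I antigen processing and interferon response, 7 passed in HT29, 6 lower and 1 higher, against 17.6% of all genes (9.82% lower). In SW480 0 of the 12 passed, against 3.3% of all genes. TAPBP, the tapasin gene of the peptide-loading complex, measured 162 and 148 CPM in the HT29 controls and 115 and 115 CPM after PRDX2 siRNA (log2 change -0.44 ± 0.05 SE, edgeR adjusted p = 9.09e-06). In SW480 it measured 93.2 and 107 CPM with control siRNA and 126 and 134 CPM with PRDX2 siRNA, a log2 change of 0.37 that did not pass. The effect differed between the lines (difference -0.81 ± 0.12 SE, edgeR adjusted p = 0.0153). The peptide transporter TAP2 fell in HT29 (log2 change -0.26 ± 0.06 SE, edgeR adjusted p = 0.00364). The peptide-trimming ERAP2 (log2 change -0.25 ± 0.05 SE, edgeR adjusted p = 0.00163) and HLA-C (log2 change -0.22 ± 0.06 SE, edgeR adjusted p = 0.0120) also fell. The list was chosen with earlier results of these data known, so its direction is not independent of them.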

How the data were processed

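The authors deposited, for each library, expected counts, TPM and FPKM per gene. For HT29 their methods name paired reads checked with FastQC, aligned to hg19 with MapSplice and estimated with RSEM on refGene transcripts, and the labels give hg19 for every library. Effective lengths were about 52 to 59 nt below full length, which weighs on TPM of short transcripts. Expected counts, as the authors deposited them, were rounded and tested with edgeR 4.0.16 in R 4.3.3 (quasi-likelihood, TMM, at least 10 counts in at least 2 libraries of the fit, Benjamini-Hochberg over all genes tested, threshold 0.05). Each line was fitted alone, and all 8 libraries were fitted for the difference between lines and for the controls. CPM per library came from 8-library TMM factors. Ratios between genes used the deposited TPM, and the deposited FPKM served as an alternative. DESeq2 1.42.0, limma 3.58.1 with trend on the log2 of TPM plus a pseudocount of 1 or 0.1, RLE scaling, no filter, a replicate block, a loess correction for transcript GC content (span 0.5) and leaving out each library were alternatives, and the steps were tested on simulated data. Values per library are given for the immunoproteasome and catalytic genes, up to 5 called members with the largest rise or fall per line, the 5 with the smallest p between lines and the 5 largest called baseline differences, with up to 5 called genes of each partner list. The members and lists were chosen with earlier results of these data known. SEM1 and UFD1 stood in the tables under older symbols. Strand was not recorded by the kit, and gene overlaps and pseudogenes were read from GENCODE on GRCh37. Start sites and promoters came from RefSeq on GRCh38.p14, with 43 of 49 members matched. The values of 1 gene of the antigen-processing list are not reported here.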

Additional observations from a re-analysis of the deposited data

Results flagged for a closer look

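Among the proteasome rows, the partner and antigen-processing lists and PRDX2, 3 genes had an effect of PRDX2 siRNA that differed between the lines. The test of that difference was edgeR's quasi-likelihood test over all genes, of which 1.12% passed. The 3 genes were 1 of 49 proteasome rows, 0 of 28 partners, 1 of 12 antigen-processing genes, and PRDX2. PSMC3IP, which encodes no proteasome subunit, had an HT29 effect minus SW480 effect of 0.77 on the log2 scale. TAPBP of the peptide-loading complex had a difference of -0.81. PRDX2, the targeted gene, had a difference of 0.84, its fall being larger in SW480. The SW480 control duplicates enter each of these differences.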

How the results depend on the processing

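Limits were groups of 2, the uneven SW480 control pair and, for HT29 calls, the choice of model. With a library left out, its lone partner was assumed to vary like the others. The rows called in HT29 (14) became 6 with DESeq2 and 0 with all 8 libraries fitted together, and 9 to 13 with a library left out. The core genes called lower in HT29 (9) became 4 with DESeq2, 4 with limma on either pseudocount and 0 with all 8 libraries together, and 5 to 8 with a library left out. In SW480 (0 rows) DESeq2 and the replicate block gave 3 each, the GC correction 6, this with the block 10, all 8 libraries together 9, and a library left out 0 to 29. The difference between lines (1 row) gave 3 with the GC correction, 4 with this and the block, and 0 to 23 with a library left out. The baseline count (34) stayed within 1.5 times under every alternative. With no single library left out it ran from 26 in a fit of the control libraries alone, against 67.5% of all genes, to 42 with the GC correction, against 81.2%. Limma on TPM split its baseline calls 30 higher to 5 lower, where all genes split 6423 higher to 4340 lower. The ratios of TPM moved by less than their pooled SD when taken from FPKM or expected counts, in all 3 pairs and both lines.

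Replicate numbers were shared by the groups without a stated pairing. Deviations of same-numbered libraries correlated at 0.11 in HT29 and 0.10 in SW480, and with only 2 pairs per line the numbers were not taken as pairs. The block gave 16 rows in HT29 (22.3% of all genes passed), 3 in SW480 (12.2%), 1 for the difference (1.33%) and 34 at baseline (73.9%). Signs reversed for values that were not called: PSMB5 in HT29 (0.0450 and 0.0453 with limma, -0.0606 to 0.00477 with a control library left out), PSMB5 in SW480 (-0.0252 with the GC correction, -0.0229 with the block as well, -0.0882 to 0.148 with a library left out), PSMB10 in SW480 (-0.0618 with the GC correction and -0.0600 with the block as well), PSMB6 in SW480 (-0.298 to 0.0513 with a library left out) and PSMB5 at baseline (-0.00653 to 0.243 with a library left out). The log2 ratio differences of PSMB8 over PSMB5 in HT29 (-0.162 to 0.0147) and of PSMB9 over PSMB6 in SW480 (-0.122 to 0.166) also changed sign with a library left out. Of the settings other than leaving out a library, 415 of the single-gene values kept their direction and call, 57 lost a call, 37 gained it and 6 reversed. The causes were not tested.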

Other observations

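The activator genes gave a pattern outside the planned comparisons, chosen after the values were seen. The TPM ratio of PSME1 to PSME2 was 2.99 and 2.79 in the HT29 controls and 2.65 and 2.94 after PRDX2 siRNA, with overlapping groups. In SW480 it was 1.14 and 1.30 in the controls and 1.93 and 1.70 after PRDX2 siRNA, without overlap, a log2 difference of 0.57 with a pooled SD of 0.13. An exact two-sided permutation test of 2 against 2 libraries gave p = 0.33, the smallest it can give. PSME2 has 6 named pseudogenes, which limits what its level can tell.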
